A study of Mus musculus with 12 samples.

Results

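The clustered protocadherins are the genes named Pcdha, Pcdhb, Pcdhga, Pcdhgb, Pcdhgc or Pcdhac with a number, and they were taken here by their symbols. Of the 23513 genes in the count tables of the embryonic mouse cortex, 1 matched, Pcdha1, the first of the alternate alpha genes. The GENCODE M21 annotation of GRCm38, the assembly that mm10 stands for, lists 58 such genes under 57 symbols, since Pcdha11 names 2 of them. They are 12 alternate alpha, 22 beta, 12 gamma A, 7 gamma B and 5 C-type genes. The measurements therefore cover this alpha gene, what surrounds it on the chromosome, and the genes known to act with the family. The levels of the other 57 were not analysed here.

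Clustered protocadherins are adhesion proteins of the neuronal surface that bind the same isoform on another membrane. In the alpha and gamma groups each gene has its own first exon with its own promoter, spliced to constant exons shared by the group, whereas a beta gene is coded by a single exon. Each neuron uses only some of the alternate promoters, chosen through the factor CTCF and the cohesin ring. The resulting mix lets a neuron tell its own branches from those of its neighbours, and the alpha proteins are known for roles in axon arborization in the forebrain.

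Nuclei from the cortices of C57BL/6J embryos were profiled by snRNAseq, in which each RNA molecule is counted once by its unique molecular identifier (UMI), with 1 library for each embryo. The dams received an intraperitoneal injection of saline, or of 2.5 g/kg ethanol (EtOH) in saline, on 6 days from E8.5 on, and the tissue was taken at E14.5 (embryonic day 14 in the labels). The 5 saline embryos were S1-1 and S1-2 of dam S1 and S2-1, S2-2 and S2-4 of dam S2, and the 6 EtOH embryos were E1-1 and E1-2 of dam E1 and E2-1 to E2-4 of dam E2. A further saline embryo of dam S2, S2-3, was not analysed here. Dams S1 and E1 formed batch 1 and dams S2 and E2 batch 2. With 2 dams per treatment, littermates are not separate from their dam, and p-values over embryos may be too small.

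The tables hold 50550 nuclei in 25 clusters, which the authors numbered and grouped as radial glia (RGCs), intermediate progenitors (IPCs), neurons that project (PNs), interneurons and 3 further neuron clusters, striatal (Cluster 11), Layer I (Cluster 14) and of unknown type (Cluster 19). Total UMIs lay between 14078316 and 83061737 per embryo, and every saline library had more of them than every EtOH library. The median UMIs per nucleus overlapped between treatments. Saline embryo S2-4, at 6325, lay below E2-1 (6911), E2-2 (6763.5) and E2-3 (6454.5), while the other saline embryos were at 8365 to 9051. The part of this depth in the levels of S2-4 was not tested. One library went against its label. Over 14381 genes, the deviations of saline embryo S2-4 from the mean of all embryos correlated at r = -0.61 to -0.26 with those of the other saline embryos and at 0.22 to 0.48 with those of the EtOH embryos, so that the tests over all nuclei, in PNs and in interneurons are given with and without it, and elsewhere it is left out of the levels where stated. S2-4 was thus set apart by the same expression values that the tests use. A smaller p without it is therefore no separate support for a change after EtOH. Between libraries, 314 of 50226 different cell barcodes were shared. Over all nuclei, Mki67 and Nes of the 21 cell type markers fell after EtOH in the test described below, and none of them rose. Of all genes tested there, 3.55% fell and 8.55% rose. The summed level of 16 markers of other cell types overlapped between treatments, with 0 of the 16 at 0 in any library. It was 231 to 522 CPM (a gene's UMIs scaled to the total of the summed library) in saline and 226 to 531 CPM in EtOH embryos. Of these markers only P2ry12, a microglial gene, was called, as higher. Ly86, the other microglial marker of the list, went the other way. Its mean was 0.534 CPM in saline and 0.447 CPM in EtOH embryos, and it was not called. Hes1, Eomes, Neurod2 and Gad2 were highest in RGCs, IPCs, PNs and interneurons, respectively.

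The clustered protocadherin genes fill 911690 bases of the plus strand of chromosome 18, from base 36930184 to 37841873. Pcdha1 opens this stretch at chr18:36930184-37187661. Its first exon, the one that makes it alpha 1, covers bases 36930184 to 36932672, and its other 4 exons, the constant ones among them, lie at the far end from base 37156155 on. The next alpha gene, Pcdha2, starts at base 36939205 inside the first intron of Pcdha1. As a result, 9021 of the 257478 bases of Pcdha1 (3.50%) lie under no other gene of the same strand, and these are its first exon and the start of its first intron.

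The other 57 clustered protocadherin genes have 0 such bases. The alpha genes overlap each other, the gamma genes overlap each other, and the beta genes lie within 3 annotated coding genes that span most of the stretch, Gm42416, Gm37013 and Gm37388, of 857356 to 887460 bases, which also had no row in the tables used here. Across the annotation, of 392 other coding genes that are overlapped on the same strand along their whole length, 15 (3.83%) had a row, compared with 17585 of 21489 (81.8%) of those with free bases. The part of this overlap in which genes had a row was not tested. Of the 13 rows inside the stretch, Pcdha1 is the only one on the plus strand and 12 lie on the other strand.

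**Figure D1:**
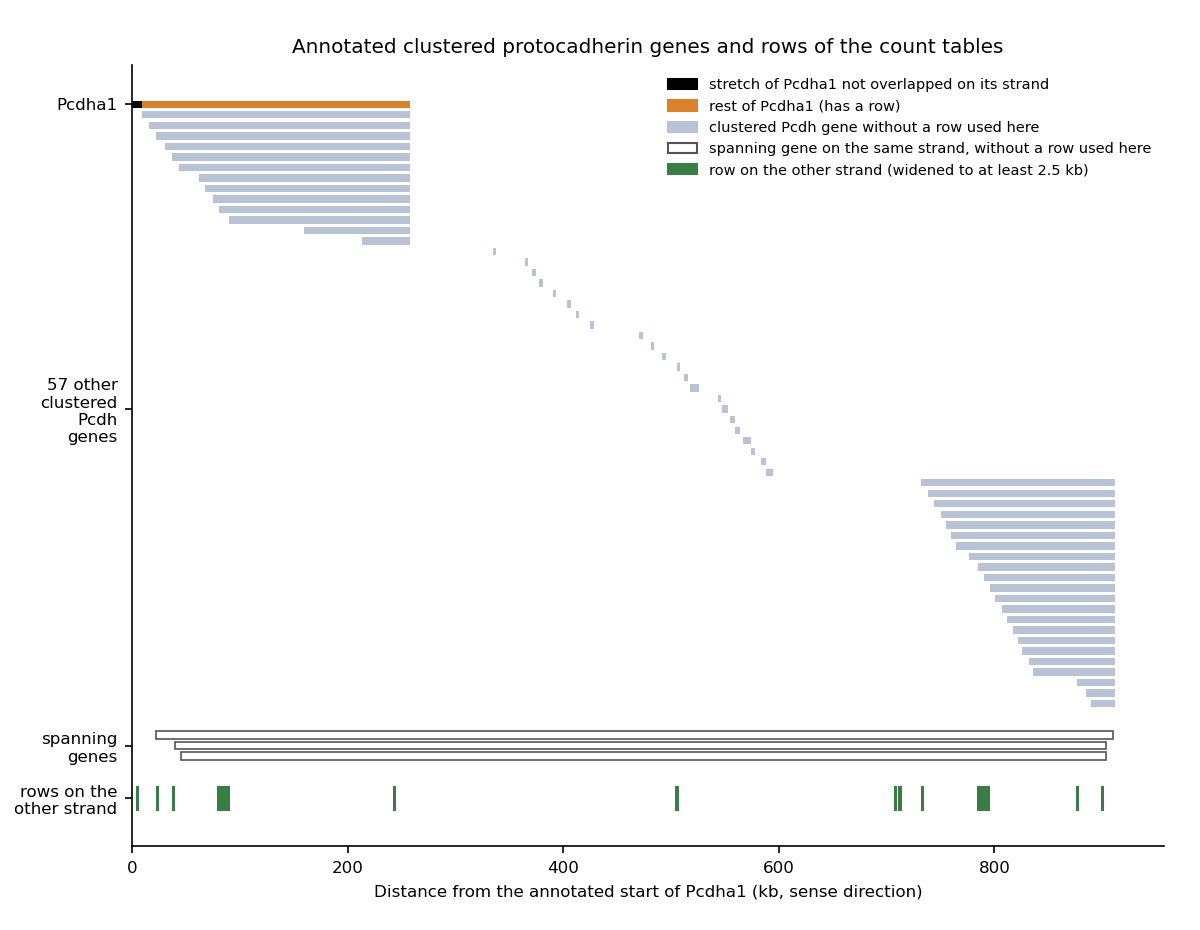
Annotated genes of the clustered protocadherin stretch, drawn to scale by distance in kb from the start of Pcdha1, with 1 line for each gene. Only the 9021 bases drawn in black at the left of Pcdha1 are free of another gene on the same strand, and the 12 rows of the other strand are drawn at the bottom, short ones widened.

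Few UMIs were counted for Pcdha1. It had 482 UMIs among 440585690, and 61.6% of the genes in the tables had more. Only 9021 of its 257478 bases lie under no other gene of the same strand. The part of this overlap in the low count was not tested, so the count is no measure of how rare the transcript is. The UMIs lay in 372 nuclei, and in 124 of the 275 combinations of embryo and cluster it had no UMI. Over all nuclei of an embryo the level was 1.07 ± 0.252 CPM (SD, n = 11). Its values therefore rest on small counts, and intervals given below are exact 95% Poisson intervals that cover counting error only. They take each UMI as independent. As the UMIs were gathered in few nuclei, described below, these intervals may be too narrow.

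Pcdha1 was higher in neurons than in progenitors. The 18 neuron clusters held 91.7% of its UMIs and 70.6% of all UMIs. Pooled over embryos, its level was 1.42 CPM (442 UMIs, interval 1.29 to 1.56) in neurons and 0.309 CPM (40 UMIs, interval 0.221 to 0.420) in the 7 RGC and IPC clusters. It was higher in the neurons of 11 of 11 embryos, with a ratio of the mean levels of 6.15. These levels are a description without a test, because the clusters were built from the expression of all genes.

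By major cell type the mean levels over the 11 embryos were 0.230 ± 0.241 CPM (SD) in RGCs, 0.221 ± 0.271 CPM in IPCs, 1.20 ± 0.371 CPM in PNs, 1.42 ± 0.324 CPM in interneurons and 2.00 ± 0.759 CPM in the 3 other neuron clusters. RGCs and IPCs did not differ beyond their spread, with IPCs higher in 4 embryos, lower in 3 and equal in 4. Interneurons were above PNs in 8 of 11 embryos, by less than 1 SD. The other neuron clusters were above PNs in 9 of 11 embryos and above interneurons in 9 of 11.

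Among the 25 clusters the level pooled over embryos ranged from 2.93 CPM in Cluster 24 (PN 2, 9 UMIs) to 0.168 CPM in Cluster 20 (RGC 2, 1 UMI). Both ends rested on few UMIs. Of those in Cluster 24, 5 came from E2-1, with 4 in a single nucleus, and without E2-1 the level was 1.40 CPM. The UMI of Cluster 20 came from E2-1 as well. No 2 neighbours in this order had intervals that were apart. Cluster 14, the Layer I neurons rich in Reln, stood at 2.43 CPM (34 UMIs, interval 1.68 to 3.39), and Cluster 7, the interneurons with the most Pcdha1 UMIs, at 2.05 CPM (77 UMIs, interval 1.62 to 2.56). Of the 77 UMIs, 22 came from S1-1, where single nuclei held 6, 6 and 4. Without S1-1 the level of Cluster 7 was 1.70 CPM. After thinning to 2000 UMIs per nucleus, Cluster 7 had 7 UMIs and 0.995 CPM (interval 0.400 to 2.05), and Cluster 14 had 9 UMIs and 3.49 CPM (interval 1.60 to 6.63). Cluster 23, migrating interneurons, was at 2.48 CPM with 7 UMIs, and at 1.61 CPM without S2-4. Cluster 15, another interneuron type, was at 1.83 CPM, Cluster 8 (PN 1) at 1.59 CPM, Cluster 11, the striatal neurons, at 1.59 CPM and Cluster 4, the rostral subcortical PNs, at 1.58 CPM. In this pooled order the 7 lowest clusters were the 5 RGC and 2 IPC clusters, all at or below 0.369 CPM. By the mean over embryos, which weights them equally, the lowest was Cluster 3, the interneuron precursors counted by the authors among the RGCs (0.139 CPM), and the early PNs of Cluster 9 (0.281 CPM) lay below the RGC Clusters 2 (0.294 CPM) and 21 (0.303 CPM). Of the 9 UMIs of Cluster 3, 7 came from S2-1, and without that embryo its pooled level fell from 0.295 to 0.0867 CPM. Leaving out 1 embryo also moved the pooled level by over 1.5 times in Cluster 12 (0.188 CPM without S2-1), Cluster 16 (0.532 CPM without S1-1), Cluster 17 (0.217 CPM without S2-4), Cluster 20 (0.275 CPM without S2-1), Cluster 21 (0 without S1-2, 0.516 CPM without S2-2) and Cluster 25 (0.943 CPM without S2-4, 0.883 CPM without E2-2).

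In the counts without thinning, the neuron clusters named as early neurons or precursors were low within their class. Cluster 9, the early PNs, was at 0.384 CPM (6 UMIs, interval 0.141 to 0.835) and the 7 other PN clusters together at 1.33 CPM (interval 1.14 to 1.54), and the latter were higher in 11 of 11 embryos. Cluster 10, the late interneuron precursors, was at 0.546 CPM (10 UMIs, interval 0.262 to 1.00). The 6 other interneuron clusters together stood at 1.68 CPM (interval 1.44 to 1.95) and were higher in 10 of 11 embryos. Cluster 9 had no UMI in 7 of 11 embryos and Cluster 10 in 5 of 11. There, any UMI in the rest of the class put that class higher, so the order within those embryos was not resolved. Callosal PNs of Cluster 1 were at 0.667 CPM (22 UMIs), below the rostral subcortical PNs of Cluster 4 in 7 of 11 embryos. The other callosal cluster, Cluster 22, was at 1.67 CPM (11 UMIs), close to Cluster 4. After thinning, Cluster 9 had 3 UMIs and 0.614 CPM (interval 0.127 to 1.80), and all PNs 1.13 CPM (interval 0.790 to 1.56). Cluster 10 had 4 UMIs and 0.848 CPM (interval 0.231 to 2.17), and all interneurons 1.32 CPM (interval 0.927 to 1.83). These intervals met within each class, so the low place of Clusters 9 and 10 was not resolved after thinning. Their median depths, 5566 and 5507.5 UMIs per nucleus, were the lowest of their classes.

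**Figure D2:**
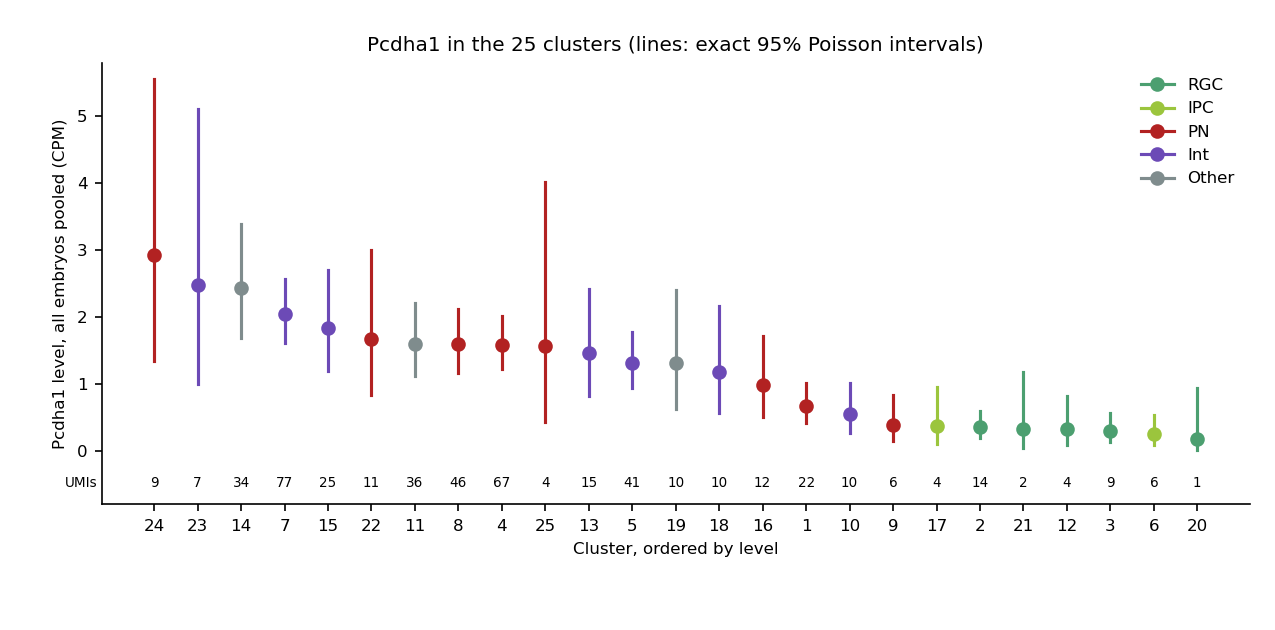
Pcdha1 level in CPM with all embryos pooled, for each of the 25 clusters from highest to lowest. Points are coloured by major cell type, lines are exact 95% Poisson intervals and the number under each point is its count of UMIs. In this pooled order the RGC and IPC clusters form the low end, and the intervals of all neighbouring clusters meet.

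Across the 25 clusters, which share libraries, the level of Pcdha1 went with that of the neuronal Map2, which binds microtubules, at Pearson's r = 0.56 (Spearman's rho 0.49), less with that of Dcx, another gene of young neurons, at r = 0.35 (rho 0.30), and against that of Mki67, a gene of dividing cells, at r = -0.59 (rho -0.59). It also went with the median UMIs per nucleus of a cluster (rho 0.58), and the part of depth in the order of the clusters was not tested. Each nucleus was then thinned to 2000 UMIs, leaving out 387 shallower nuclei. The level was 0.146 ± 0.217 CPM in RGCs, 0.278 ± 0.622 CPM in IPCs, 1.11 ± 0.557 CPM in PNs and 1.21 ± 0.473 CPM in interneurons (SD, n = 11). The progenitor means were lower, but rested on 5 UMIs in RGCs and 3 in IPCs, with 7 and 9 of 11 embryos at 0. Pooled, the interval of RGCs (0.0692 to 0.498) lay below those of PNs (0.790 to 1.56) and interneurons (0.927 to 1.83). The interval of IPCs (0.0655 to 0.928) met both, so their order against neurons was not resolved after thinning.

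A Pcdha1 UMI was found in 0.736% of all nuclei, in 1.00% of neuron nuclei (median depth 7737 UMIs) and in 0.187% of RGC and IPC nuclei (median depth 6318 UMIs). After thinning, the shares were 0.246% of neuron nuclei and 0.0486% of RGC and IPC nuclei. A cell type that is known to lack Pcdha1 was not analysed here, so the share in progenitors cannot be told from RNA set free in the suspension.

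The UMIs were gathered in few nuclei. Of the 372 nuclei, 294 had 1 UMI, 57 had 2, 16 had 3, 2 had 4 and 3 had 6. If the UMIs of each embryo and cluster were spread over its nuclei in proportion to their depth, 7.97 nuclei would hold 2 or more, and 78 did. These 78 nuclei held 39.0% of all Pcdha1 UMIs and had a median depth of 12429.5 UMIs, against 7258 over all nuclei. The 5 nuclei with 4 or more were 3 from Cluster 7 of S1-1, 1 from Cluster 11 of S1-2 and 1 from Cluster 24 of E2-1. Doublets were not called, and their part in this was not tested. The Poisson intervals given for Pcdha1 do not cover such clumping.

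Pcdha1 did not pass the test between treatments. Over all nuclei, its level in the saline embryos was 1.37 CPM in S1-1 (114 UMIs), 1.15 CPM in S1-2 (61 UMIs), 0.957 CPM in S2-1 (57 UMIs), 0.454 CPM in S2-2 (20 UMIs) and 1.17 CPM in S2-4 (63 UMIs). In the EtOH embryos it was 0.994 CPM in E1-1 (14 UMIs), 1.20 CPM in E1-2 (21 UMIs), 1.31 CPM in E2-1 (41 UMIs), 1.24 CPM in E2-2 (47 UMIs), 1.02 CPM in E2-3 (18 UMIs) and 0.912 CPM in E2-4 (26 UMIs). The EtOH values lay wholly within the range of the saline values, and S2-2 was the lowest of all. Over all nuclei, fewer cells of a type and less RNA per cell cannot be told apart.

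The means were 1.02 ± 0.349 CPM (SD, n = 5) in saline and 1.11 ± 0.157 CPM (SD, n = 6) in EtOH embryos. With edgeR's quasi-likelihood test fitted on all genes, the log2 fold change was 0.03 ± 0.25 (SE), with an adjusted p of 0.942 (Benjamini-Hochberg). A 95% interval from this SE and 9 degrees of freedom covered folds of 0.687 to 1.52, and this width holds the spread between embryos as well as counting error. Of 18138 genes tested, 12.1% were called, which took an adjusted p below 0.05 together with a level more than 25% higher or more than 20% lower, and the median log2 fold change over all of them was 0.01. Without S2-4 the log2 fold change of Pcdha1 was 0.05 ± 0.27, with an adjusted p of 0.899 in edgeR, where 23% of 17934 genes were called. Within batch 1 the EtOH mean was 1.10 CPM and the saline mean 1.26 CPM (n = 2 each), and within batch 2 they were 1.12 CPM (n = 4) and 0.860 CPM (n = 3). The direction thus differed between the batches, and leaving out S2-2 gave a log2 fold change of -0.15, with an edgeR adjusted p of 0.556.

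**Figure D3:**
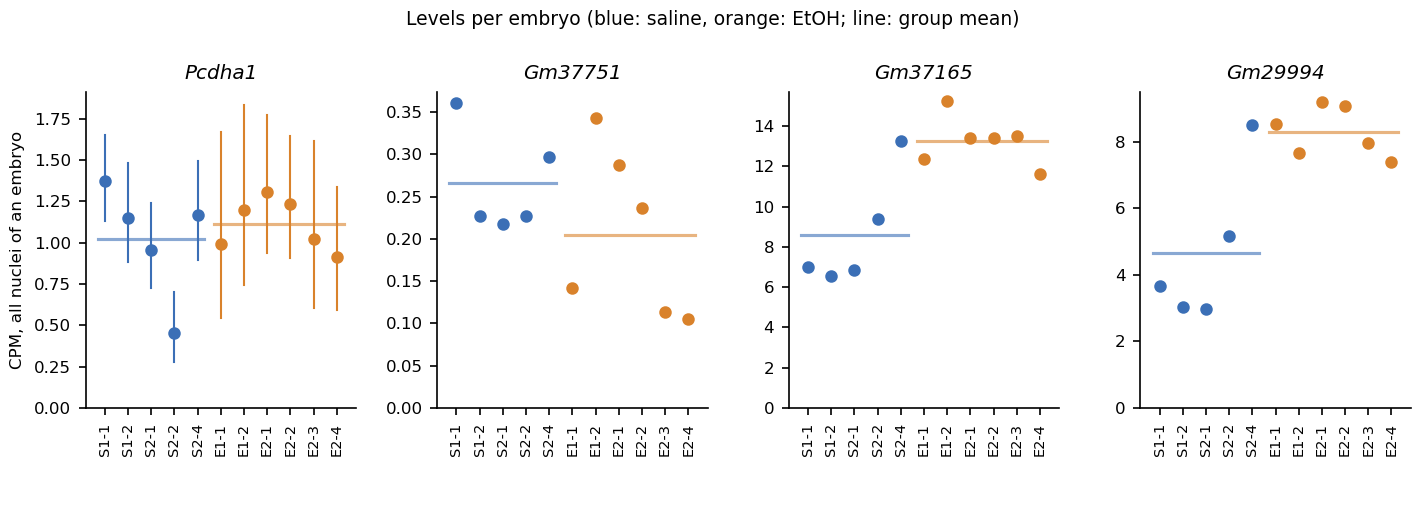
Levels in CPM over all nuclei of each embryo, saline in blue and EtOH in orange, with the group mean as a line, for Pcdha1 and 3 transcripts of the other strand. Vertical lines for Pcdha1 are exact 95% Poisson intervals. The treatments overlap for Pcdha1 and Gm37751, whereas for Gm37165 and Gm29994 the saline embryos other than S2-4 lie below the EtOH embryos.

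Within a major cell type, Pcdha1 had enough counts for the test in PNs and interneurons, and was called in neither. In the PNs of saline embryos the level was 1.44 CPM in S1-1, 1.35 CPM in S1-2, 0.630 CPM in S2-1, 0.375 CPM in S2-2 and 1.32 CPM in S2-4. In the PNs of EtOH embryos it lay between 1.10 and 1.54 CPM, with a median of 1.36 CPM. The 2 low saline embryos both came from dam S2, and the other 3 lay among the EtOH embryos. Pcdha1 had a log2 fold change of 0.27 ± 0.30 (SE), with an adjusted p of 0.575 in edgeR, where 6.53% of 14604 genes were called. Without S2-4 it was 0.32 ± 0.32, with an edgeR adjusted p of 0.483, and 20.9% of genes were called.

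In interneurons the saline embryos had 1.95 CPM (S1-1), 1.22 CPM (S1-2), 1.43 CPM (S2-1), 0.891 CPM (S2-2) and 1.92 CPM (S2-4), and the EtOH embryos 1.10 to 1.52 CPM with a median of 1.44 CPM. Again the EtOH values lay within the saline range. Here the log2 fold change was -0.22 ± 0.25 (SE), with an adjusted p of 0.589 in edgeR, where 4.83% of 14525 genes were called, and without S2-4 it was -0.17 ± 0.26 (edgeR adjusted p of 0.666), with 17.1% of genes called. Whether the change differed between PNs and interneurons was not tested.

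In the RGCs, the IPCs and the 3 other neuron clusters Pcdha1 fell under the filter on low counts. Of the genes tested in RGCs and in IPCs, 3.79% and 1.52% were called. In RGCs it had 27 UMIs in saline embryos, with 0.382 CPM in S1-1, 0.442 CPM in S1-2, 0.717 CPM in S2-1, 0.148 CPM in S2-2 and 0.253 CPM in S2-4. In EtOH embryos it had 3 UMIs, with 0.449 CPM in E2-1, 0.142 CPM in E2-2 and no UMI in the other 4. Of the EtOH embryos, E2-1 lay above 4 of the 5 saline embryos and the other 5 lay below all of them. In the 4 with no UMI, 3 counts would have been 0.518 to 1.01 CPM in each. E2-2 had 1 UMI and S2-2, the lowest saline embryo, had 2. This order was thus not resolved by the counts. IPCs had 9 UMIs in saline and 1 in EtOH embryos.

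Pooled over RGCs and IPCs, the level was 0.395 CPM (36 UMIs, interval 0.277 to 0.547) in saline and 0.104 CPM (4 UMIs, interval 0.0283 to 0.266) in EtOH embryos. In the 4 EtOH embryos with no UMI in these cells, 3 counts would have been 0.360 to 0.673 CPM in each. Without S2-4 the pooled saline level was 0.402 CPM (30 UMIs, interval 0.271 to 0.574). Of the 36 saline UMIs, 13 came from S2-1, and of the 4 EtOH UMIs 3 came from E2-1. Fitted without the filter, edgeR gave RGCs a log2 fold change of -1.81 ± 0.80 (SE), with an unadjusted p of 0.0340 and an adjusted p of 0.182, and IPCs -1.87 ± 1.09, with an adjusted p of 0.386. In DESeq2 the unadjusted p in RGCs was 0.0675, with no adjusted p because of the low counts. Neither passed the threshold after adjustment, and these fits include S2-4. Of the 21 cell type markers, Mki67 fell in RGCs, and Mki67 and Neurod2 fell in IPCs. Without S2-4, 6 of the 21 fell and 1 rose in RGCs (Dcx, Gad2, Hes1, Map2, Mki67, Rarb and Reln), against 5.78% and 12.7% of all genes tested there. The part of these changes in the level of Pcdha1 was not tested.

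In the sum of the 3 other neuron clusters, the saline embryos had 2.23 CPM (S1-1), 2.89 CPM (S1-2), 0.617 CPM (S2-1), 0.901 CPM (S2-2) and 1.19 CPM (S2-4), and the EtOH embryos 1.87 to 2.61 CPM. S1-1 lay within the EtOH range, S1-2 above it, and the 3 embryos of dam S2 below every EtOH embryo. The pooled saline level was 1.57 CPM, and 1.65 CPM without S2-4. Fitted without the filter, edgeR gave a log2 fold change of 0.45 ± 0.41 (SE), with an adjusted p of 0.617.

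**Figure D4:**
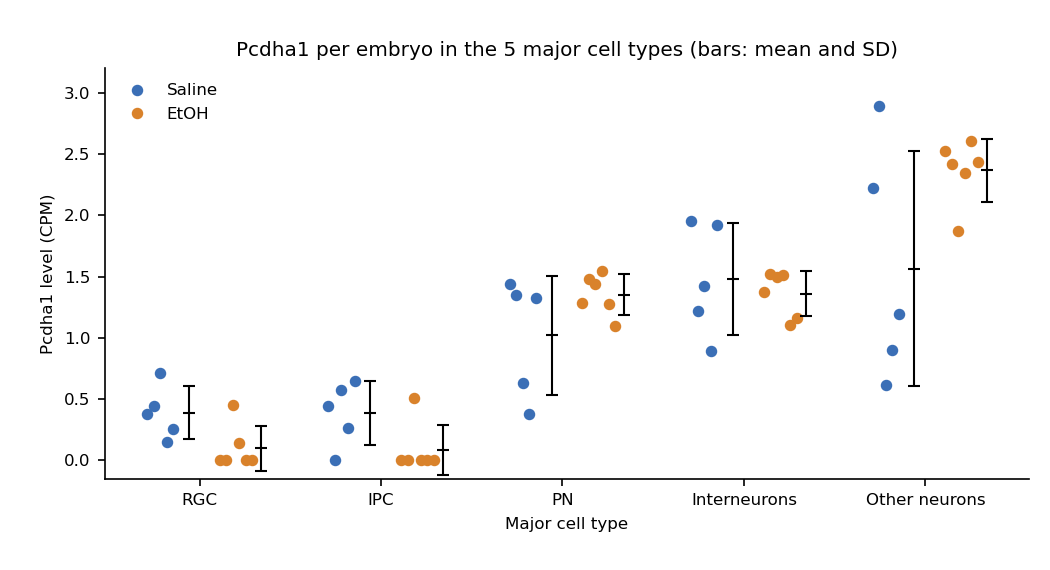
Pcdha1 level in CPM per embryo in the 5 major cell types, saline in blue and EtOH in orange. Black bars are means and SDs over 5 saline and 6 EtOH embryos. The treatments overlap in every cell type, and most EtOH embryos lie at 0 in RGCs and IPCs.

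In the 25 single clusters Pcdha1 passed the filter in 0, so no cluster gave a test in the fit with the filter, in which 3432 to 11837 genes were tested. With the filter left off, the smallest adjusted p over the 25 clusters in edgeR was 0.241. Before adjustment, the threshold of 0.05 was passed in Cluster 3, at a log2 fold change of -3.28, and in Cluster 24, at 2.16. Cluster 24 had no Pcdha1 UMI in 7 of 10 embryos and Cluster 3 in 9 of 11, and 7 of the 9 UMIs of Cluster 3 came from S2-1 and 5 of the 9 of Cluster 24 from E2-1. In DESeq2, 0 clusters had a p under 0.05, and the smallest was 0.0906.

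The genes known to act on promoter choice and silencing of the family were a list of 18, all of which were tested over all nuclei. Of these, 0 rose, 1 fell and 17 were not called in edgeR, and their median log2 fold change was -0.19, against 0.01 over all genes, of which 3.55% fell. Ctcf, which marks the promoters and loops them to the enhancers, had 136 to 147 CPM in saline and 123 to 141 CPM in EtOH embryos, and was not called. Among the cohesin genes, Rad21 had 66.9 to 75.2 CPM in saline and 56.5 to 63.3 CPM in EtOH embryos, Stag1 519 to 546 and 447 to 500 CPM, and the cohesin loader Nipbl 422 to 436 and 373 to 419 CPM. None of these 3 was called, and the share of all genes whose ranges lie apart was not computed. Of all genes tested, 38.1% had an unadjusted p below 0.05 in edgeR. Smc1a (72.5 to 88.9 CPM in saline, 73.4 to 82.2 CPM in EtOH embryos) and Stag2 (176 to 189 and 156 to 178 CPM) overlapped and were not called. Ctcf, Rad21, Stag1, Nipbl, Smc1a, Stag2, Smc3 and Mau2 were picked out after their values had been seen. Others of this machinery lay the other way, with the cohesin gene Smc3 at 105 to 146 CPM in saline and 127 to 152 CPM in EtOH embryos and Mau2, the partner of Nipbl, at 92.6 to 102 and 97.8 to 106 CPM. In all, 14 of the 18 had a lower mean in EtOH embryos and 4 a higher one, and the share over all genes was not computed. A higher mean was also seen in 6 of the 21 cell type markers and 5 of the 16 other-cell markers. In the lists below it was seen in 8 of 18 partners, 9 of 12 neighbouring genes and 7 of 10 opposite-strand genes. The gene that fell was Rest, a repressor of neuronal genes that also binds in the alpha group. Its level was 21.1 CPM in S1-1, 21.7 CPM in S1-2, 24.2 CPM in S2-1, 32.5 CPM in S2-2 and 24.8 CPM in S2-4, and 16.7 to 24.4 CPM with a median of 21.3 CPM in EtOH embryos, so that the groups overlapped. Rest had a log2 fold change of -0.33 ± 0.10 (SE), with an adjusted p of 0.0377 in edgeR and of 0.0246 without S2-4. The call was lost when any of E1-2, E2-1, E2-2, E2-3, E2-4, S1-1, S1-2, S2-1 or S2-2 was left out, at an edgeR adjusted p of 0.0587 to 0.0814, with counts summed per dam (0.135) and after thinning to 2000 UMIs (0.224, at a log2 fold change of -0.23). Without S2-4, Lrif1 and Pds5b also fell, which made 3 of the 18, where 6.38% of all genes fell. In that setting Lrif1 also fell in RGCs, IPCs, PNs and interneurons and Pds5b in RGCs and IPCs, against 5.78%, 4.85%, 6% and 3.55% of the genes tested in those 4 types. The dividing cell marker Mki67 and the radial glial Nes fell over all nuclei as well, and their part in the level of Rest was not tested.

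Of the 18 partners of the proteins and effectors on the actin side, 1 rose and 0 fell over all nuclei, against 8.55% of all genes that rose. Their median log2 fold change was -0.08. The gene was Ptk2b, a kinase that the alpha and gamma proteins bind and inhibit. It had 417 UMIs in all, at 0.758 CPM in S1-1, 0.831 CPM in S1-2, 0.621 CPM in S2-1, 0.977 CPM in S2-2 and 0.742 CPM in S2-4, and at 0.926 to 1.96 CPM with a median of 1.16 CPM in EtOH embryos. S2-2 and the lowest EtOH embryo, E2-1, overlapped. Ptk2b had a log2 fold change of 0.63 ± 0.20 (SE), with an adjusted p of 0.0442 in edgeR and of 0.0448 without S2-4, and the call was lost when any one of the other 10 embryos was left out, at an adjusted p of 0.0502 to 0.101. It was also lost with voom and the dam as a block (0.0528), with batch as a covariate (0.0579), without the filter (0.0572) and with counts summed per dam (0.181). Its related kinase Ptk2, named here for comparison after its values had been seen, was not called, at 462 to 487 CPM in saline and 460 to 512 CPM in EtOH embryos. In the 3 other neuron clusters, where 0.493% of genes fell, Nlgn1, a synaptic adhesion gene whose protein binds gamma protocadherins, fell by 0.54 ± 0.12 on the log2 scale (adjusted p of 0.0487 in edgeR, 0.00893 without S2-4, where 2.75% fell). That call too was lost when any one of the other 10 embryos was left out, at an adjusted p of 0.0508 to 0.135, and with batch as a covariate (0.0586), without the filter (0.0822), with counts summed per dam (0.120) and after thinning (0.140). Of the 20 cell type markers tested in these 3 clusters, Mki67 fell as well, and its part in the level of Nlgn1 was not tested. Without S2-4, Wasf1, an actin regulator, fell in RGCs and Nlgn1 in IPCs, each 1 of 16 partners tested, against 5.78% and 4.85% of all genes tested there.

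On the strand opposite to the protocadherins, 10 genes annotated as antisense RNAs had rows, and these were listed after the rows of the tables had been seen. Gm37751 lies at chr18:36933952-36935149, in the first intron of Pcdha1 and within the 9021 free bases. It had 112 UMIs, with 1 in RGCs, 1 in IPCs, 50 in PNs, 43 in interneurons and 17 in the 3 other neuron clusters. Pooled, it was at 0.346 CPM in PNs (interval 0.257 to 0.457), 0.351 CPM in interneurons (interval 0.254 to 0.473) and 0.0106 CPM in RGCs (interval 0.000268 to 0.0590). Both transcripts of this place were thus higher in neurons than in RGCs. Cell Ranger was run by the authors at its defaults, under which a read counts for a gene of its own strand, and whether reads of Pcdha1 and Gm37751 were mixed was not tested. Gm37751 had too few counts for the test, at 0.218 to 0.361 CPM in saline and 0.105 to 0.343 CPM in EtOH embryos, which overlapped.

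Of the 10, 4 passed the filter over all nuclei, and 2 rose and 0 fell after EtOH, against 8.55% of all genes that rose. Their median log2 fold change was 0.40. Gm37165 lies at chr18:37714279-37726121, opposite the gamma genes. Its level was 6.98 CPM in S1-1, 6.55 CPM in S1-2, 6.83 CPM in S2-1, 9.38 CPM in S2-2 and 13.3 CPM in S2-4, and 11.6 to 15.3 CPM with a median of 13.4 CPM in EtOH embryos. The saline library S2-4 lay among the EtOH embryos, and the other 4 saline embryos were below all of them. The log2 fold change was 0.57 ± 0.15 (SE), with an adjusted p of 0.0237 in edgeR. Without S2-4 it was 0.75 ± 0.10, with an edgeR adjusted p of 9.68e-05. Leaving out a saline library that lay among the EtOH embryos lowers p, so that value is no separate support. The call was lost without E1-2, S1-1, S1-2 or S2-1, at an adjusted p of 0.0519 to 0.0651, and with counts summed per dam (0.0599).

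Gm29994 lies at chr18:37829008-37830200, near the end of the gamma genes and opposite them. Its level was 3.66 CPM in S1-1, 3.02 CPM in S1-2, 2.99 CPM in S2-1, 5.18 CPM in S2-2 and 8.51 CPM in S2-4, and 7.40 to 9.19 CPM with a median of 8.24 CPM in EtOH embryos. As with Gm37165, only S2-4 of the saline embryos overlapped the EtOH embryos. The log2 fold change was 0.78 ± 0.22 (SE), with an adjusted p of 0.0311 in edgeR, and 1.08 ± 0.14 without S2-4, with an adjusted p of 7.31e-05. The call was lost without E1-2, E2-1, E2-2, E2-3, S1-1, S1-2 or S2-1, at an adjusted p of 0.0549 to 0.0773, and with counts summed per dam (0.0592). In PNs, Gm29994 also rose, by 0.78 ± 0.21 on the log2 scale with an adjusted p of 0.0365 in edgeR. That call was kept without E1-2 or S2-4 and lost without any other embryo, at an adjusted p of 0.0551 to 0.0976, after thinning (0.0572) and with counts summed per dam (0.172). In PNs, 5 of the 21 cell type markers also fell (Dlx1, Ednrb, Eomes, Neurod2 and Neurog2), Mcam of the other-cell markers fell and P2ry12 rose. Of all genes tested in PNs, 6.53% were called in either direction and 4.17% rose. Over all nuclei, P2ry12 had 6.93 to 10.8 CPM in the saline embryos other than S2-4, 16.1 CPM in S2-4 and 13.2 to 18.3 CPM in EtOH embryos, so that S2-4 lay among the EtOH embryos here too. The part of these genes' cells in the levels of Gm37165 and Gm29994 was not tested. Without S2-4, both transcripts were called higher in each of the 5 major cell types, where 12.7% of the genes tested in RGCs, 10.1% in IPCs, 14.9% in PNs, 13.6% in interneurons and 8.92% in the 3 other neuron clusters rose. Since S2-4 lay among the EtOH embryos for both transcripts, these calls and p-values without it are no separate support.

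Of the 12 coding genes around and between the protocadherin groups, 11 were tested over all nuclei, and 1 rose and 0 fell in edgeR, against 8.55% and 3.55% of all genes, with a median log2 fold change of 0.13. The gene that rose was Rell2, of the RELT receptor family. Its level was 3.19 CPM in S1-1, 3.10 CPM in S1-2, 3.64 CPM in S2-1, 3.95 CPM in S2-2 and 5.45 CPM in S2-4, and 5.51 to 6.81 CPM with a median of 5.95 CPM in EtOH embryos. S2-4 was the saline embryo nearest to the EtOH embryos. It had 294 UMIs, and E2-3, the lowest EtOH embryo, had 97. Their levels were too close for such counts to resolve whether the groups overlap. The share of all genes whose groups do not overlap was not computed. The log2 fold change was 0.60 ± 0.12 (SE), with an adjusted p of 0.0151 in edgeR, and the call was kept with any one embryo left out but not with counts summed per dam (0.0663). Without S2-4 the log2 fold change was 0.73, with an edgeR adjusted p of 7.57e-05, which leaves out the saline embryo nearest to the EtOH embryos. Rell2 also rose in PNs (0.46 ± 0.14, adjusted p of 0.0451) and in interneurons (0.70 ± 0.18, adjusted p of 0.0397) in edgeR, against 4.17% and 3.6% of the genes tested there. In interneurons Mki67 also fell and the microglial P2ry12 rose, and their part in the level of Rell2 was not tested. With 1 embryo left out, its call in PNs was kept without S2-4 and lost without any other, at an adjusted p of 0.0510 to 0.116, and it was lost without the filter (0.0575), after thinning (0.0511) and with counts summed per dam (0.231). In interneurons it was lost without E1-2, E2-1, E2-2, E2-3, E2-4, S1-1, S1-2 or S2-1, at 0.0590 to 0.114, with batch as a covariate (0.0504), after thinning (0.128) and with counts summed per dam (0.0664). Without S2-4, Dnd1, Taf7 and Zmat2 rose over all nuclei too, which made 4 of the 11, where 16.6% of all genes rose, and in the major cell types Rell2 was called higher in all but IPCs, Zmat2 higher in interneurons and Ik lower in interneurons. In that setting 12.7% of the genes tested rose in RGCs, 14.9% in PNs, 13.6% in interneurons and 8.92% in the 3 other neuron clusters, and 3.55% fell in interneurons. Slc25a2 and Taf7 lie between the beta and gamma groups on the other strand, and Slc25a2 had 49 UMIs in all and was not tested.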

How the data were processed

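For each embryo and cluster, the authors deposited a table of UMI counts per gene and nucleus, made with Cell Ranger on mm10 after quality filters and clustering. Cell Ranger was run at its defaults with its own mm10 reference, and its version and the use of intronic reads are not given in the sources used here. The deposited counts are raw whole numbers. Counts were summed per embryo within each cluster, major cell type and over all nuclei, and given as CPM of the summed counts, without a doublet call. EtOH was compared with saline by edgeR's quasi-likelihood test (TMM scaling, filterByExpr, robust fit, at least 10 nuclei per embryo and cluster), on all genes, with Benjamini-Hochberg adjustment. A call took an adjusted p below 0.05 together with a level more than 25% higher or 20% lower. The pipeline was tested on simulated counts, with a common spread for all genes and no dam or batch effect. Only genes above a minimum expected count were changed in them. That test thus does not cover Pcdha1 in PNs and interneurons, or the spread between dams. Alternatives were relative log expression scaling, no filter on low counts, DESeq2, batch as a covariate, counts summed per dam, limma voom with the dam as a block, thinning to 2000 UMIs, at least 25 nuclei, and leaving out each embryo. Same-strand overlaps were computed on GENCODE M21 (GRCm38), in which 23136 of 23513 symbols (98.4%) were found. The named genes were every member with a row and every gene of 3 lists (promoter choice, protein partners, neighbours) called over all nuclei or in a major cell type with all embryos in the fit, and others are named as such. The list of opposite-strand genes was added after the rows were seen, and the pooled levels without single embryos were computed after the data had been seen. The members and lists were chosen with earlier results of these data known. Total counts per library limit precision as given beside each value. Pairs of libraries of 1 treatment differed by more than sampling noise (chi-square per gene of 4.33 to 89.7). The tools were R 4.3.3, edgeR 4.0.16, limma 3.58.1, DESeq2 1.42.0, Python 3.11.15, NumPy 2.4.6, SciPy 1.17.1, pandas 2.3.3 and matplotlib 3.10.9.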

Additional observations from a re-analysis of the deposited data

Results flagged for a closer look

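Among 26 groups of embryos examined, 4 values stood apart from the rest of their group by Dixon's criterion, which chance alone meets in about 5% of groups. Of these, 3 came from EtOH embryo E2-1, for Pcdha1. In RGCs, E2-1 had 0.449 CPM and the next embryo 0.142 CPM. In IPCs it had 0.507 CPM, from 1 UMI, while the other 5 EtOH embryos were at 0, so that any single UMI would have stood apart. The RGC values too rest on 2 UMIs in E2-1 and 1 in E2-2, with the other 4 EtOH embryos at 0, and the 5% does not hold for such tied counts. In the 3 other neuron clusters it was the lowest, at 1.87 CPM, with the next embryo at 2.35 CPM. The other value was Ptk2b over all nuclei in EtOH embryo E2-4, at 1.96 CPM with the next embryo at 1.31 CPM.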

How the results depend on the processing

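Where Pcdha1 was tested, over all nuclei, in PNs and in interneurons, it was called under 0 of 17 alternatives. In the 25 clusters and the other major cell types it mostly fell under the filter on low counts, so that the lack of a call there says nothing of stability. Over all nuclei its log2 fold change lay between -0.15 and 0.20 over 17 alternatives (adjusted p of 0.556 to 0.998), and it turned negative with counts summed per dam (-0.064), without E2-1 (-0.03) and without S2-2 (-0.15). In PNs it lay between 0.08 and 0.47, and in interneurons between -0.32 and -0.07. After thinning to 2000 UMIs Pcdha1 passed the filter on low counts nowhere. The difference of the all-nuclei CPM, EtOH minus saline, was 0.0916, and -0.0500 to 0.180 with each embryo left out. The share of nuclei with a Pcdha1 UMI, as a mean over embryos, depends on depth. Without thinning it was 0.711% over all nuclei, 0.159% in RGCs, 0.881% in PNs, 0.935% in interneurons, 1.44% in the 3 other neuron clusters, 0.973% in neurons and 0.151% in RGCs and IPCs, against 0.179% over all nuclei with thinning. With each embryo left out, 0 to 3 genes of the promoter choice list, 0 to 1 of the partners, 1 to 4 of the neighbours and 0 to 2 opposite-strand genes were called over all nuclei, where 2.27% to 23% of all genes were called. The highest counts of the first 3 lists came without S2-4, and with any other embryo left out they were at most 1, 0 and 1, with 2.27% to 10.9% of all genes called. With counts summed per dam, the calls of Rest, Ptk2b, Nlgn1, Rell2, Gm37165 and Gm29994 were lost, while their log2 fold changes over all nuclei stayed near those with all embryos, at -0.30 for Rest, 0.57 for Ptk2b, 0.62 for Rell2, 0.60 for Gm37165 and 0.81 for Gm29994, and at -0.57 for Nlgn1 in the 3 other neuron clusters. Depth limits what could be seen of Pcdha1 in single clusters and in progenitors. No paired analysis was possible because the embryo numbers only count embryos within a dam and do not link saline with EtOH embryos. Dams are matched by batch alone, and with batch as a covariate Pcdha1 had a log2 fold change of 0.11 over all nuclei (edgeR adjusted p of 0.775).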
